A study of Mus musculus and Homo sapiens with 27 samples.

Results

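Het B cells are mouse splenic B cells that carry Irf4 on 1 allele only (Irf4+/-), and they were compared after 48 h in lipopolysaccharide (LPS), with 2 arrays, and before LPS, called 0 h here, with 3 arrays. These 5 arrays were chosen by their titles, out of 27 in the series and 23 with mouse cells. The cells came from the spleens of adult Balb-c mice and were grown in RPMI with fetal bovine serum, and the labels give the LPS as 20 to 25 mg/ml, a unit printed here as labelled. Each array of the mouse lymphochip, a spotted cDNA array of lymphocyte genes, was hybridised with B-cell RNA labelled with Cy5 and with a pool of RNA from B-cell, T-cell and monocyte lines labelled with Cy3. Het arrays after 24 h (2 arrays) and 96 h (4 arrays) in LPS, and Irf4-/- (KO) arrays at 48 h and 0 h (3 each), are used below to place the 48 h values. All Het cells share the Irf4-deficient allele, and neither wild-type cells nor cells cultured for 48 h without LPS were analysed here, so LPS and time in culture cannot be told apart.

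LPS is a component of the outer membrane of Gram-negative bacteria that B cells sense through Toll-like receptor 4. A resting B cell is small and out of the cell cycle, and transcription factors of the FOXO and KLF families and a set of growth-restraining genes keep it there. After LPS the NF-kB factors are activated, the cell grows, makes nucleotides, amino acids and lipids, divides several times, and in part becomes an antibody-secreting plasmablast. IRF4 is one of the transcription factors that this last step needs, and its level rises with the strength of the stimulus.

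A level below is the log2 ratio of a gene in B cells to the pool, after the median of the array was set to 0 and the features of a gene were averaged. A difference is the mean level at 48 h minus the mean level at 0 h. Of 12292 features, 559 carried 1 gene symbol and gave 331 genes, 222 of them with more than 1 feature. Irf4 was not among the named genes, so the genotype was not checked. Cd79b, a signalling chain of the B-cell receptor, had levels of 3.02 and 2.26 at 48 h, against 3.82, 4.04 and 2.56 at 0 h, and lay above the pool on all 5 arrays. Bank1, an adaptor of B-cell receptor signalling, lay between 3.46 and 5.16 on them, so both B-cell markers measured were high on them. Of the T and NK markers 3 of 31 were measured, with summed ratios of 1.42 to 1.45 at 48 h against 1.78 to 2.05 at 0 h. Of the myeloid markers 3 of 32 were measured, with summed ratios of 3.43 to 5.45 against 1.21 to 3.62. None of these 6 genes passed the test, the summed B-cell markers lay at 15.8 to 26.9 against 21.9 to 52.0, and the part of other cells in the differences was not tested.

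The 0 h arrays were uneven. Values below -6, far under the level of the pool, made up 1.94% and 0.252% of the features at 48 h, against 10.8%, 12.3% and 1.42% at 0 h. Array titles carry a number of the authors' database that falls into 3 ranges. Het 0 h replicates 1 and 2 lie in the lowest range, Het 48 h replicate 1 in the middle range, and Het 48 h replicate 2 with Het 0 h replicate 3 in the highest range. The last pair therefore gives a difference within 1 range, called the same-range difference below, which has 1 array a side and no test. Values below -6 made up 15.3% of the features on Het 24 h replicate 1, also in the lowest range. On KO 0 h replicate 1 and KO 24 h replicate 1, in that range too, they made up 0.594% and 2.15%. Over the named genes the 48 h replicates correlated at 0.72, and the 0 h replicates at 0.64, 0.46 and 0.37. The median standard deviation (SD) of a gene was 0.34 at 48 h and 0.88 at 0 h. Nothing in the labels says whether arrays came from separate mice, so p-values measure the spread between arrays.

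At 48 h 20 genes were higher and 8 lower than at 0 h, 28 of 331 in all (limma adjusted p under 0.05). That is 8.46% of the genes tested, 6.04% higher and 2.42% lower, and 81 genes had an unadjusted p under 0.05. The genes that fell include genes that hold back growth and immediate early genes. The genes that rose include enzymes of nucleotide, amino acid and sugar metabolism, DNA replication genes, and 2 of 8 measured activation genes and NF-kB targets. The 20 higher genes differed by 1.55 to 6.29, with a median of 3.49, and the 8 lower genes by -1.21 to -4.60, with a median of -2.05. The median over all genes was 0.10. In all 28 genes the 48 h and 0 h levels did not overlap, which was also true of 110 of the 331 genes (33.2%), 76 with 48 h above (23%) and 34 with 48 h below (10.3%). The median same-range difference was 1.76 for the higher and -1.55 for the lower genes, against 0.51 over all genes. Its sign is fixed where groups do not overlap, so only its size is informative. In 16 of the 20 higher and 1 of the 8 lower genes the lowest 0 h level was that of Het 0 h replicate 1 or 2. These are 2 of the 3 arrays at 0 h, and the share over all genes was not counted. Without the lowest range, Het 0 h replicate 3 is the only array left at 0 h, so the spread at 0 h is not measured. The medians of the 20 and the 8 genes were then 1.85 and -1.41.

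**Figure D1:**
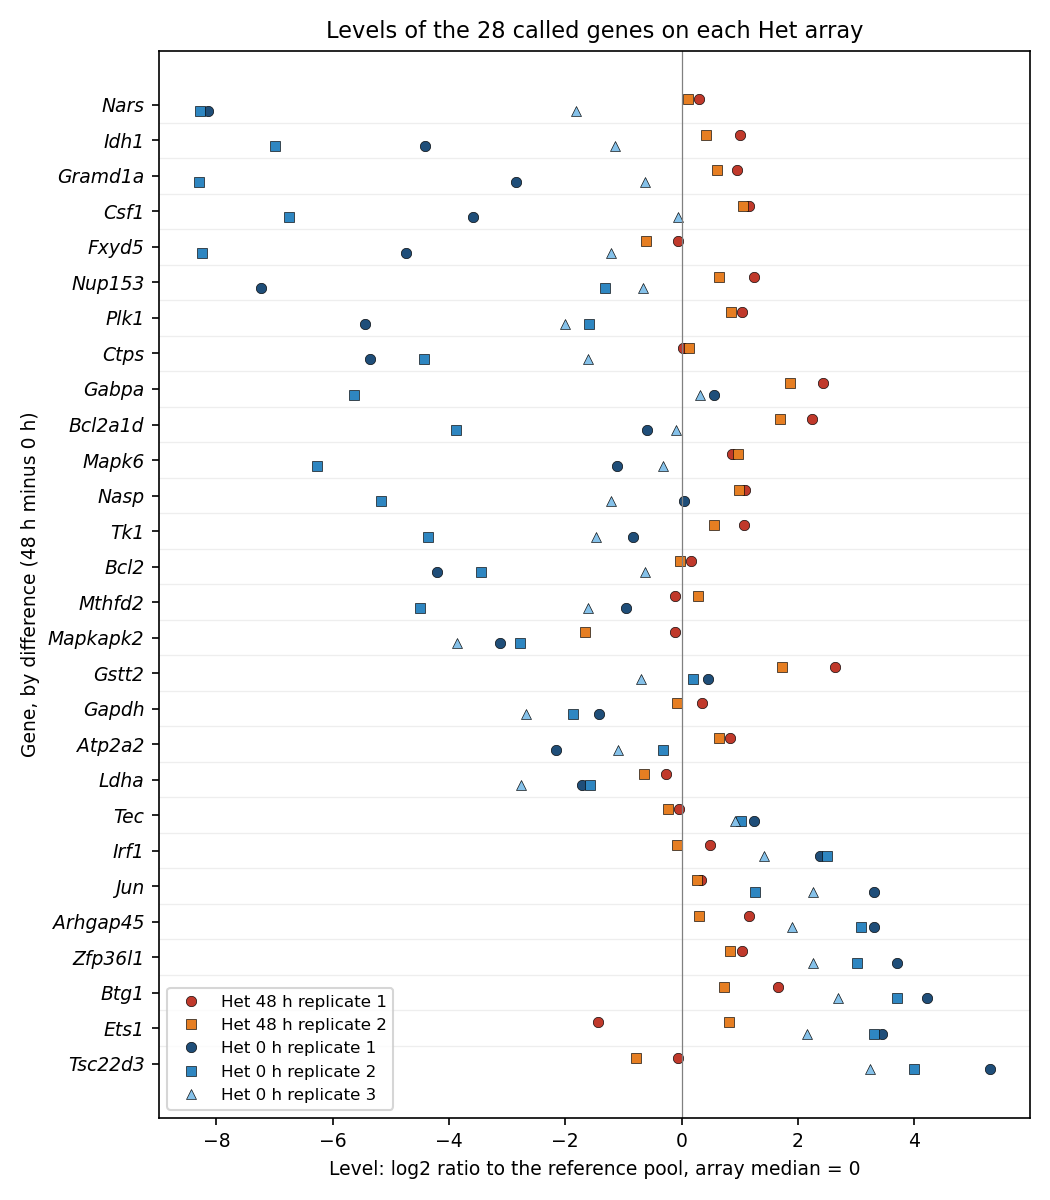
Levels (log2 ratio to the pool, array median 0) of the 28 genes that passed the test, with 1 point per array, 48 h points above the 0 h points of each gene. The median SD of the 20 higher genes was 0.27 at 48 h and 2.08 at 0 h, with 0 h levels down to -8.31 for Gramd1a, and that of the 8 lower genes was 0.45 at 48 h and 0.74 at 0 h; the 48 h levels of Ets1 and Mapkapk2 lie apart.

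The calls rest on a spread pooled over all 23 mouse arrays. Fitted on the 5 arrays alone, 0 of 331 genes passed the test by limma, and 1 did when all Het arrays were fitted. Without Het 48 h replicate 1, 0 of the 20 higher and 3 of the 8 lower calls were kept, and without Het 48 h replicate 2, 8 and 3 were. Centring on the named features alone gave 39 higher and 27 lower genes, and quantile normalization gave 20 higher and 4 lower, against 20 and 8.

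The genes of quiescence and growth restraint held the largest falls. This and the other lists were chosen with earlier results of these data known, so counts of their members are no independent support. Over all 331 genes 178 differences were above 0 and 153 below. Of 33 listed genes 5 were measured, and 3 of them fell, 0 rose and 5 of 5 had a difference below 0. The median was -2.35, against 0.10 over all genes, and the median same-range difference was -1.34. Tsc22d3, the gene of the glucocorticoid-induced protein GILZ, had levels of -0.06 and -0.78 at 48 h, against 5.31, 4.00 and 3.25 at 0 h. Both 48 h arrays lay below the pool and all 0 h arrays far above it. The difference was -4.60 ± 0.54 (SE, limma adjusted p = 2.88e-05), 24.3-fold lower, and the same-range difference was -4.03. Its 2 features gave differences that lay 0.024 apart. The call was lost in 1 of 21 alternatives, the fit of the 5 arrays alone (adjusted p = 0.359).

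Ets1, a transcription factor that restrains plasma cell formation in B cells, had levels of -1.44 and 0.82 at 48 h, against 3.44, 3.31 and 2.15 at 0 h. The 48 h arrays lay apart from each other, yet both were below every 0 h array. It fell by 3.28 ± 0.66 (SE, limma adjusted p = 0.00463), and the same-range difference was -1.34. Without Het 48 h replicate 1 the call was lost. Btg1, an antiproliferative partner of the CCR4-NOT deadenylase, had levels of 1.65 and 0.73 at 48 h, against 4.21, 3.71 and 2.70 at 0 h. It fell by 2.35 ± 0.47 (SE, limma adjusted p = 0.00463), and stayed above the pool on all 5 arrays. The other members measured were Trp53inp1, a p53-induced stress gene, at -1.27 (95% interval -3.07 to 0.52) and Foxp1, a transcription factor of naive B cells, at -0.50 (-4.0 to 2.99). Neither passed the test, and the interval of Foxp1 holds both large falls and large rises.

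The promoter of Btg1 shows a match to the composite motif of ETS and IRF factors, the kind of site that IRF4 and an ETS partner such as PU.1 share. The sequence runs over chr10:96616751-96617050 on the plus strand of GRCm38.p6 (RefSeq), from 250 bases before to 50 after the transcription start, and the capitals mark the match, whose first base is at -42.

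Btg1 promoter: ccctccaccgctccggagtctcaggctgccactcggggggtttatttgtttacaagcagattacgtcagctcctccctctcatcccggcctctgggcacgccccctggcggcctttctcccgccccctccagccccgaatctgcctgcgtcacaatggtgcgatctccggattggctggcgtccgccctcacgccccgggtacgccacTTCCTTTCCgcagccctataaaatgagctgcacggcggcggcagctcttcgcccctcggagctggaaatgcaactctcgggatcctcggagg

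The letters searched for were GGAANNGAA on both strands, and their last 7 letters are also the last 7 of the interferon response motif GAAANNGAA. They were found in 1 of 12 promoters of the lower genes, in 1 of 21 of the higher genes (Fxyd5, at -91), in 9.59% of the promoters of the genes tested and in 8.24% of all promoters of this length. A promoter was at hand for 24 of the 28 genes and for 265 of the 331. The interferon response motif was found in 0 of the 21 and 0 of the 12 promoters, against 7.85% for the genes tested. E2F motifs, as TTTGGCGC or TTTCCCGC, were found in 0 of the 21 and 0 of the 12 too, against 1.74% and 1.45%.

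Immediate early genes are those that resting cells switch on within minutes of a stimulus or of handling. Of 20 listed 4 were measured, 2 fell at 48 h, 0 rose, and all 4 differences were below 0, with a median of -1.61 and a median same-range difference of -0.92. Zfp36l1, an RNA-binding protein that destabilises AU-rich mRNAs, had levels of 1.04 and 0.83 at 48 h, against 3.70, 3.02 and 2.25 at 0 h. It fell by 2.06 ± 0.54 (SE, limma adjusted p = 0.0278). Jun, a subunit of the AP-1 factor, had levels of 0.34 and 0.26 at 48 h, against 3.30, 1.26 and 2.27 at 0 h. It fell by 1.98 ± 0.54 (SE, limma adjusted p = 0.0311), with a same-range difference of -2.01. Both 48 h arrays of each gene lay below all its 0 h arrays. Myc, the growth factor-induced regulator of cell growth, had levels of -0.57 and -0.48 at 48 h, against 1.84, 0.40 and -0.07 at 0 h. The groups did not overlap, but the difference of -1.25 (95% interval -2.83 to 0.34, limma adjusted p = 0.3) did not pass the test. Nr4a1, an orphan nuclear receptor induced by B-cell receptor signals, differed by -0.40 (-1.40 to 0.60). Under quantile normalization 0 of the 4 members passed the test, and without Het 48 h replicate 1, without Het 48 h replicate 2 or without Het 0 h replicate 1 likewise 0 did.

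Among 7 of 42 genes of interferon response and antigen processing, 1 fell and 0 rose, with a median of -0.27 that turned to 0.44 under quantile normalization. The gene that fell was Irf1, an interferon-induced transcription factor, with levels of 0.48 and -0.07 at 48 h, against 2.39, 2.51 and 1.42 at 0 h. Its difference was -1.90 ± 0.35 (SE, limma adjusted p = 0.00463), with -1.49 within 1 range, and its call was kept in 19 of 21 alternatives. The other 6 members had differences between -0.87 (B2m, the light chain of MHC class I) and 2.38 (Igtp, an interferon-induced GTPase). The value of Igtp rests on Het 0 h replicate 2, at -6.99, and its same-range difference was -1.0.

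The remaining lower genes belong to none of the lists. Arhgap45 had levels of 1.15 and 0.29 at 48 h, against 3.31, 3.09 and 1.90 at 0 h, a difference of -2.04 ± 0.53 (SE, limma adjusted p = 0.0278). Tec, a tyrosine kinase of the family of BTK, had levels of -0.04 and -0.24 at 48 h, against 1.24, 1.03 and 0.93 at 0 h. Its 0 h arrays lay close together, and its difference of -1.21 ± 0.36 (SE, limma adjusted p = 0.0463) was the smallest of the 8 falls. The calls of Arhgap45 and Tec were kept in 10 and 7 of 21 alternatives.

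**Figure D2:**
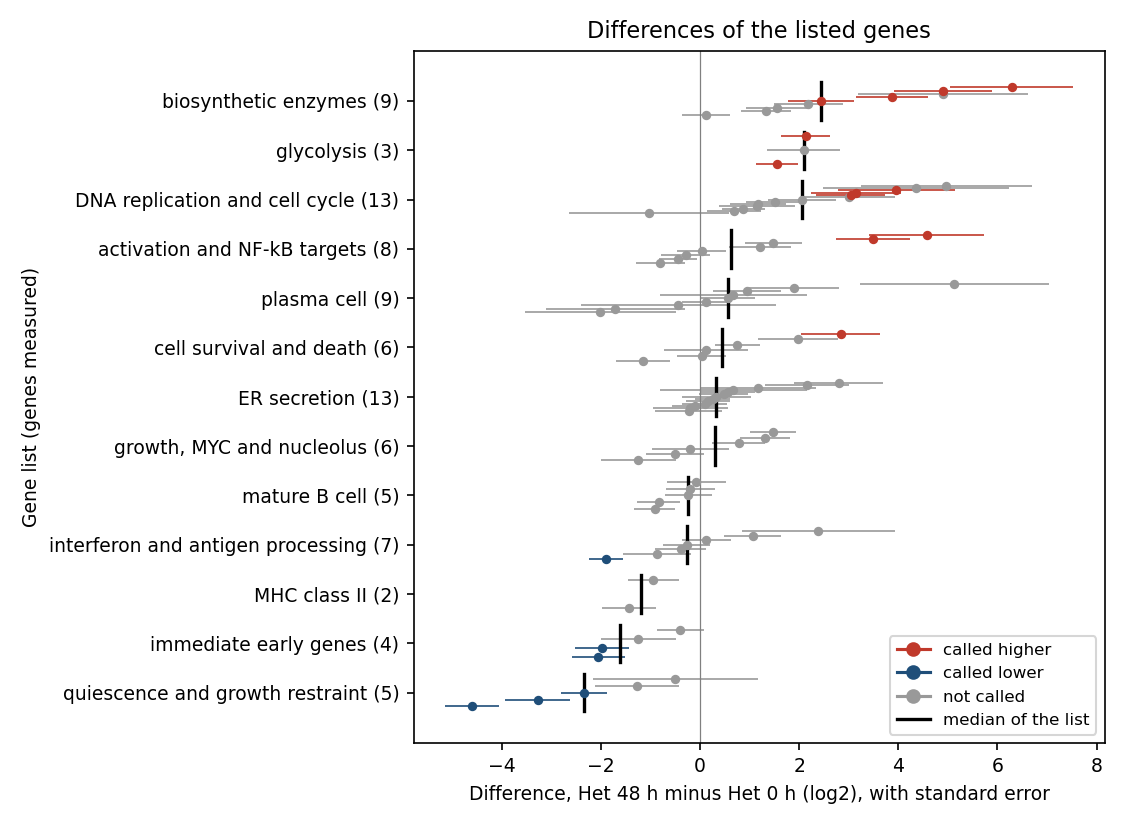
Differences (48 h minus 0 h, log2) of each measured gene of the 13 lists, with standard errors from limma, lists ordered by their median (black bar). Quiescence and immediate early genes lie left of 0, biosynthetic, glycolytic and DNA replication genes mostly right of it, and the ER secretion genes near it with a median of 0.33.

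Enzymes and transporters of biosynthesis held the 2 largest rises. Of 47 listed 9 were measured, 4 rose and 0 fell, and all 9 differences were above 0, as were 178 of all 331. Their median was 2.44 and their median same-range difference 1.72, against 0.10 and 0.51 over all genes. Nars, the asparaginyl-tRNA synthetase, had levels of 0.31 and 0.11 at 48 h, against -8.14, -8.28 and -1.82 at 0 h. The size of its difference of 6.29 ± 1.24 (SE, limma adjusted p = 0.00463) rests on the 0 h arrays of the lowest range, and the same-range difference was 1.93. Ctps, CTP synthase, had levels of 0.03 and 0.12 at 48 h, against -5.36, -4.43 and -1.60 at 0 h. It rose by 3.87 ± 0.73 (SE, limma adjusted p = 0.00463), with 1.72 within 1 range, but its 2 features gave 6.92 and 0.83. Idh1, the cytosolic isocitrate dehydrogenase that supplies NADPH, had levels of 1.01 and 0.42 at 48 h, against -4.42, -6.99 and -1.15 at 0 h. It rose by 4.90 ± 0.99 (SE, limma adjusted p = 0.00463), with 1.57 within 1 range, and its 2 features gave 4.24 and 5.57.

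Mthfd2, a mitochondrial enzyme of one-carbon metabolism, had levels of -0.11 and 0.28 at 48 h, against -0.96, -4.50 and -1.60 at 0 h, and rose by 2.44 ± 0.67 (SE, limma adjusted p = 0.0338). Here 1 of the 0 h arrays stood apart, and the same-range difference was 1.88. The transporter gene Slc7a5 (1.54) and the methyl-cycle enzyme Ahcy (1.33) did not pass the test. Their same-range differences were larger, at 2.72 and 2.45, since Het 0 h replicate 3 was their lowest array. Gbe1, the glycogen branching enzyme, was the reverse, with a difference of 2.18 (adjusted p = 0.0604) and 0.10 within 1 range. Slc35a2, the Golgi UDP-galactose transporter, had 4.90 (adjusted p = 0.0870) and -0.07. Slc3a2, the partner of Slc7a5, differed by 0.12. Without Het 48 h replicate 1, which leaves 1 array at 48 h, the 4 calls were lost.

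Glycolytic enzymes were measured by 3 of 20 listed genes, of which 2 rose and 0 fell, with a median of 2.09 and a median same-range difference of 2.60. Gapdh, glyceraldehyde-3-phosphate dehydrogenase, had levels of 0.35 and -0.07 at 48 h, against -1.42, -1.87 and -2.67 at 0 h. The difference was 2.13 ± 0.49 (SE, limma adjusted p = 0.0116). Ldha, which makes lactate from pyruvate, had levels of -0.27 and -0.65 at 48 h, against -1.72, -1.57 and -2.76 at 0 h. The difference was 1.55 ± 0.42 (SE, limma adjusted p = 0.0311). In contrast to Nars, no 0 h array of either gene lay below -3, and the same-range differences of 2.60 and 2.11 were larger than the full ones. Pkm, pyruvate kinase, had levels of 0.17 and -0.84 at 48 h, against -1.74, -1.83 and -3.70 at 0 h, and its difference of 2.09 ± 0.73 (SE, limma adjusted p = 0.0870) did not pass the test. Under quantile normalization 0 of the 3 passed the test. Without Het 48 h replicate 1, which leaves 1 array at 48 h, the calls of Gapdh and Ldha were lost.

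The upstream promoter of Ldha held more of the searched motifs than any other promoter of the 28 genes. It runs over chr7:46845554-46845853 on the plus strand of GRCm38.p6 (RefSeq), and the capitals mark 2 E-boxes CACGTG, the motif bound by MYC with MAX, at -145 and -48, and 1 CREB/ATF motif TGACGTCA at -12.

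Ldha promoter: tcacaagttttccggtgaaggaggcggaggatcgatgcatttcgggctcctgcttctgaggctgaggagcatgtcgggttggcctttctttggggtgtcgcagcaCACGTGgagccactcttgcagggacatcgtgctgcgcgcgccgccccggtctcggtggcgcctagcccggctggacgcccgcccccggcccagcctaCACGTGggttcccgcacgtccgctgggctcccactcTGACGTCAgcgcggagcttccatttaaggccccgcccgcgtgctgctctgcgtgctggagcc

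Of the 21 promoters of higher genes 1 held CACGTG (4.76%) and of the 12 of lower genes 2 did (16.7%, overlapping windows of Arhgap45 that share 1 site), against 12.2% of the promoters of the genes tested and 7.15% of all promoters. Both strands read the same for these palindromes. The CREB/ATF letters share TGACGT with the XBP1 motif TGACGTGG, which was in none of the promoters of the 28 genes, and were found in 2.62% of the promoters of the genes tested.

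Of 75 listed DNA replication and cell cycle genes 13 were measured, 3 rose at 48 h and 0 fell, and 12 of 13 differences were above 0, with a median of 2.05 and a median same-range difference of 2.13. Tk1, the thymidine kinase of S phase, had levels of 1.08 and 0.55 at 48 h, against -0.84, -4.35 and -1.47 at 0 h, and rose by 3.04 ± 0.69 (SE, limma adjusted p = 0.0107). Nasp, a histone chaperone, had levels of 1.09 and 0.98 at 48 h, against 0.04, -5.16 and -1.21 at 0 h, and rose by 3.15 ± 0.91 (SE, limma adjusted p = 0.0421). Plk1, a kinase of mitosis, had levels of 1.04 and 0.85 at 48 h, against -5.44, -1.60 and -2.01 at 0 h, and rose by 3.96 ± 1.19 (SE, limma adjusted p = 0.0463). All 3 lay above the pool on both 48 h arrays, and their same-range differences were 2.02, 2.20 and 2.86. The features of Tk1, Nasp and Plk1 gave differences of the same sign that lay up to 3.23, 3.35 and 2.60 apart.

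The other members of the replication list did not pass the test. Fen1, the flap endonuclease, differed by 2.99 (limma adjusted p = 0.0562) and Hmgb2, a chromatin protein of dividing cells, by 2.05 (adjusted p = 0.0766). Pcna, the sliding clamp of DNA polymerase, had levels of 1.31 and 1.16 at 48 h, against 0.48, 0.28 and -1.59 at 0 h, a difference of 1.51 (95% interval 0.28 to 2.74, adjusted p = 0.119). Mcm2, a subunit of the replicative helicase, differed by 1.16 and Mki67, the proliferation marker Ki-67, by 1.16, while their same-range differences were 2.20 and 3.40. Tfdp1, the partner of the E2F factors, had a difference of 4.97 that rests on 1 array at -10.15. For Ccnd1, a cyclin of early G1, the difference was -1.03 (-4.44 to 2.37), the only one below 0. With the conflicting labels described below left out 1 of the 13 passed the test, against 12 of all 331 genes. Without Het 48 h replicate 1 the count was 0, and without Het 48 h replicate 2 it was 1. Without Het 0 h replicate 1 or 3 it was 7 or 6, against 42 or 79 of all 331 genes.

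**Figure D3:**
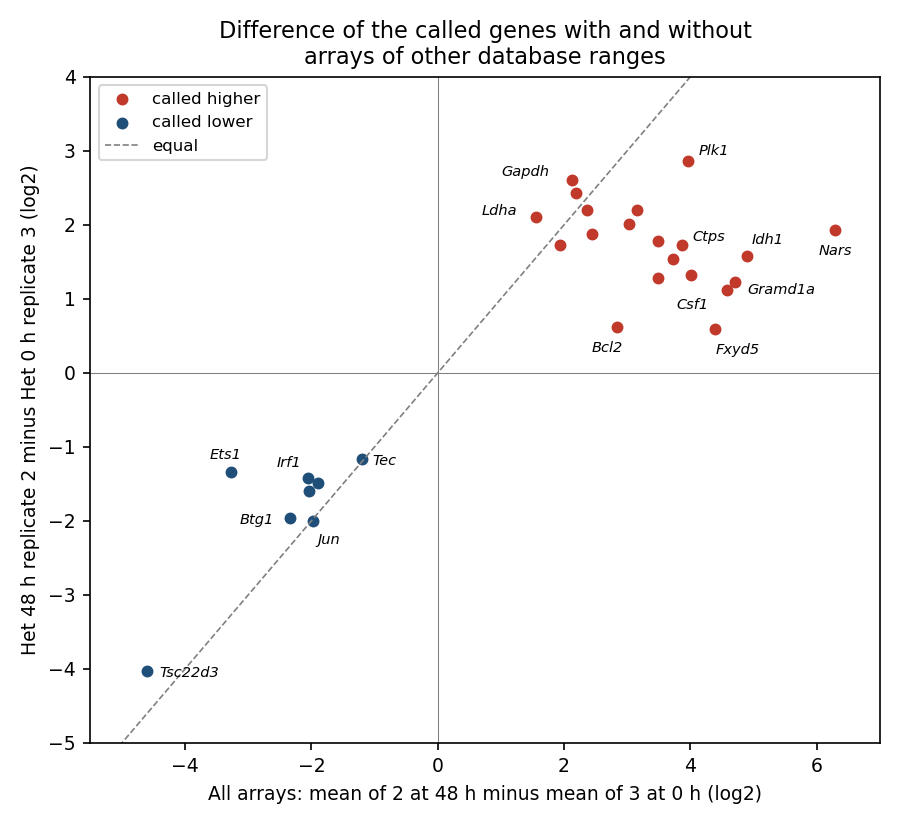
Full difference (2 arrays at 48 h minus 3 at 0 h, x axis, log2) of the 28 called genes against the same-range difference (Het 48 h replicate 2 minus Het 0 h replicate 3, y axis, log2). The sign of a point is fixed by the lack of overlap. Among the higher genes Gapdh, Ldha and Gstt2 had the larger value within the range, and Nars, Fxyd5, Csf1 and Gramd1a a far smaller one; among the lower genes Ets1 lies farthest from the line of equality.

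Of the activation genes and NF-kB targets 8 of 51 were measured, 2 rose and 0 fell. Of the 8 differences 5 were above 0 and 3 below. The median was 0.62 and the median same-range difference 0.58, against 0.10 and 0.51 over all genes. Bcl2a1d, a member of the Bcl2a1 family of NF-kB-induced survival proteins, had levels of 2.24 and 1.69 at 48 h, against -0.60, -3.88 and -0.10 at 0 h. It rose by 3.49 ± 0.75 (SE, limma adjusted p = 0.00695), with 1.78 within 1 range. Its near-identical paralogs may share its spots. Csf1, the macrophage growth factor M-CSF, had levels of 1.17 and 1.05 at 48 h, against -3.59, -6.75 and -0.06 at 0 h. It rose by 4.58 ± 1.16 (SE, limma adjusted p = 0.0243) on 1 feature, with 1.11 within 1 range, and the call was lost without the lowest range. Pim1, a survival kinase, differed by 1.20 (adjusted p = 0.233) and Birc3, the NF-kB-induced inhibitor of apoptosis cIAP2, by 0.03 (-1.01 to 1.08). Socs2 (-0.80) and Entpd1, which encodes the ectoenzyme CD39 (-0.44), had lower levels at 48 h on both arrays than at 0 h, without passing the test.

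The promoter of Csf1 carries an NF-kB motif, GGGANTTTC or its reverse complement, at -153. It runs over chr3:107760420-107760719 on the minus strand of GRCm38.p6 (RefSeq) and is shown with the match in capitals.

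Csf1 promoter: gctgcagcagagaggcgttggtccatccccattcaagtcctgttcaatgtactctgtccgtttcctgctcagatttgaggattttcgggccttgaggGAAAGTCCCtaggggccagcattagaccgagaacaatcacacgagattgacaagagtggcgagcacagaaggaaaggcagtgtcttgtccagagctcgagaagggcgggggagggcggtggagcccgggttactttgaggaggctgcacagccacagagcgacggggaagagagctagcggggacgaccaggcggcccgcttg

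This motif was in 1 of 21 promoters of the higher genes, in 0 of 12 of the lower genes, in 1.74% of the promoters of the genes tested and in 1.11% of all promoters. The promoter of Bcl2a1d did not hold these letters.

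Of 6 measured survival and death genes 1 rose and 0 fell, with a median of 0.43. Bcl2, the antiapoptotic gene of that family, had levels of 0.16 and -0.02 at 48 h, against -4.21, -3.45 and -0.64 at 0 h, a difference of 2.83 ± 0.80 (SE, limma adjusted p = 0.0383). Its 2 features gave 5.99 and -0.32, and with values beyond 6 set to missing the difference was -0.21, so the rise rests on 1 feature. Mcl1, another antiapoptotic member, had levels of 0.34 and -0.33 at 48 h, against 1.71, 1.86 and -0.10 at 0 h, a difference of -1.15 (95% interval -2.32 to 0.01). Bcl2l11, which encodes the death inducer BIM, differed by 0.75 and Casp4, an inflammatory caspase, by 1.97, neither past the threshold.

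The remaining 8 higher genes are in none of the lists. Gramd1a, a carrier of cholesterol to the ER, had levels of 0.95 and 0.60 at 48 h, against -2.84, -8.31 and -0.63 at 0 h, and rose by 4.70 ± 1.27 (SE, limma adjusted p = 0.0311). Fxyd5, a regulator of the sodium pump, had levels of -0.06 and -0.62 at 48 h, against -4.74, -8.24 and -1.21 at 0 h, and rose by 4.39 ± 1.27 (SE, adjusted p = 0.0421). Their same-range differences were 1.23 for Gramd1a and 0.59 for Fxyd5, the lowest of the 20. The features of Fxyd5 gave differences of the same sign that lay up to 3.35 apart. Nup153, a nuclear pore protein, rose by 4.01 ± 1.18 (SE), Gabpa, an ETS-family factor of mitochondrial genes, by 3.73 ± 1.14 (SE), and Mapk6, the atypical kinase ERK3, by 3.49 ± 1.05 (SE). Each of these 3 had 1 array of the lowest range far below the rest, at -7.23, -5.64 and -6.27, and same-range differences of 1.32, 1.53 and 1.29.

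Mapkapk2, the kinase MK2 downstream of p38, had levels of -0.12 and -1.65 at 48 h, against -3.12, -2.78 and -3.86 at 0 h, and rose by 2.37 ± 0.49 (SE, limma adjusted p = 0.00500). Gstt2, a glutathione transferase, had levels of 2.63 and 1.73 at 48 h, against 0.45, 0.20 and -0.69 at 0 h, and rose by 2.19 ± 0.45 (SE, limma adjusted p = 0.00500). For neither gene did a single 0 h array stand apart, and the same-range differences were 2.21 and 2.42. Atp2a2, the calcium pump of the ER, was named after its values were seen, with a rise of 1.93 ± 0.57 (SE, limma adjusted p = 0.0463).

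In 5 further lists no gene passed the test. All 5 measured mature B-cell genes differed by less than 1, with a median of -0.24 that turned to 0.43 under quantile normalization. Cd79b differed by -0.84 ± 0.43 (SE, limma adjusted p = 0.233), Bank1 by -0.92 ± 0.41 (SE, adjusted p = 0.172) and Tcf4, the E protein E2-2, by -0.24 ± 0.48 (SE, adjusted p = 0.826). For H2-DMa and H2-DMb1, chains of the MHC class II peptide loader, the differences were -1.44 ± 0.55 (SE, adjusted p = 0.114) and -0.95 ± 0.51 (SE, adjusted p = 0.247). H2-DMa had levels of 2.12 and 1.46 at 48 h, against 3.90, 3.66 and 2.13 at 0 h, so the groups did not overlap but lay side by side. In bulk RNA fewer cells of a type and less RNA per cell cannot be told apart. Of the growth and nucleolar genes, Nme1, a nucleoside diphosphate kinase and MYC target, differed by 1.47 (adjusted p = 0.0568) and Npm1, nucleophosmin, by 1.31 (adjusted p = 0.114). The 6 members of that list had a median of 0.29 and a median same-range difference of 1.55, against 0.10 and 0.51 over all genes.

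Plasma cell genes were not called either, 0 of 9 measured, with a median of 0.56. Jchain, which links the units of secreted IgM and IgA, had levels of 0.89 and -0.35 at 48 h, against 1.83, 2.65 and 1.45 at 0 h. Both 48 h arrays lay below the 0 h arrays, and the difference of -1.71 ± 1.40 (SE, limma adjusted p = 0.470) did not pass the test. Xbp1, the factor of the secretory programme, had levels of -0.04 and 0.00 at 48 h, against 0.53, -1.88 and -0.40 at 0 h, a difference of 0.56 (95% interval -0.61 to 1.73). Prdm1, which encodes Blimp-1, had levels of 0.30 and 1.01 at 48 h, against 3.13, 1.81 and -1.66 at 0 h. Its difference of -0.44 (-4.56 to 3.68) is not informative, and within the highest range it was 2.67, the opposite sign. Mzb1, an ER chaperone of IgM, had levels of 1.00 and 0.44 at 48 h, against -4.56, -8.60 and -0.07 at 0 h, and its difference of 5.13 (adjusted p = 0.111) was 0.51 within 1 range. Ell2, an elongation factor for secreted immunoglobulin mRNA, differed by 1.90 (adjusted p = 0.200) and Iglv1, a lambda light chain segment, by 0.94 (adjusted p = 0.398). Of the 13 ER secretion genes 10 had differences above 0 and 0 passed, with Pdia3, a disulfide isomerase, nearest at 2.79 (adjusted p = 0.0607) and Kdelr1, the KDEL receptor, at 2.16 (adjusted p = 0.119). The median same-range differences of the plasma cell and ER secretion lists were 0.51 and 0.81, against 0.51 over all genes.

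The 48 h levels were also set against the Het 24 h arrays. Between 48 h and 24 h 0 genes passed the test by limma (0% of 331), with 18 at an unadjusted p under 0.05. Of the 20 genes that had risen 11 were above and 9 below their 24 h level, and of the 8 that had fallen 4 and 4. Over all 331 genes 130 were above and 201 below, with a median of -0.17. The 20 and the 8 genes were chosen on the same 48 h arrays that are used here. Tsc22d3 lay at -0.06 and -0.78 at 48 h, against -0.51 and -1.50 at 24 h. The smallest p-values were those of Gstt2 (1.53 ± 0.50 SE), Edem1, a lectin of ER-associated degradation (4.83 ± 1.63 SE), Pigv, an enzyme of GPI anchors (3.93 ± 1.38 SE), and Gsn, the actin-severing gelsolin (3.09 ± 1.12 SE), all at an adjusted p of 0.722. For Edem1, Pigv and Gsn the value rests on Het 24 h replicate 1, at -7.94, -7.81 and -6.13. Without Het 24 h replicate 2 the count was 23. Set against the same 3 arrays at 0 h, 44 of 331 genes changed by 24 h (13.3%) and 85 by 96 h (25.7%). These comparisons share their 0 h arrays with the one at 48 h. Of the 20 higher genes 14 were also called at 24 h and 11 at 96 h, and of the 8 lower genes 7 and 8.

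From 48 h to 96 h 45 genes changed (13.6% of 331), 5 higher at 96 h (1.51%) and 40 lower (12.1%), against a median of -0.51 over all genes. Of the 20 genes that had risen by 48 h, 17 had a lower mean at 96 h, as had 242 of all 331 genes, and 4 of the 17 passed the threshold (Gapdh, Ldha, Gstt2 and Plk1). The 20 genes were chosen on the same 48 h arrays that enter this comparison. Of the 8 that had fallen, 0 passed, and the levels of Tsc22d3 at 96 h lay between -1.11 and -0.10. Gapdh lay between -2.88 and -1.07 on the 96 h arrays, against 0.35 and -0.07 at 48 h, a difference of -2.13 ± 0.47 (SE, limma adjusted p = 0.0131). Mcm2 (-2.33), Nme1 (-2.11), Ahcy (-2.27), Cycs, cytochrome c (-1.90), and Ldha (-1.83) fell with the same adjusted p. Akap12, a scaffold protein of kinase A, lay between -3.85 and -2.64 at 96 h, against -0.65 and -0.60 at 48 h, a fall of 2.46 ± 0.46 (SE, limma adjusted p = 0.00959). Socs2, an inhibitor of cytokine signalling, lay between 2.02 and 3.13 at 96 h, against 0.41 and -0.20 at 48 h, a rise of 2.49 ± 0.48 (SE, limma adjusted p = 0.00959). Ints7, an Integrator subunit, rose by 2.21 ± 0.50 (SE) and Entpd1 by 1.59 ± 0.37 (SE), both with an adjusted p of 0.0131. All 96 h arrays lie in the highest database range, and without Het 48 h replicate 1 or 2 the count was 0 or 1.

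**Figure D4:**
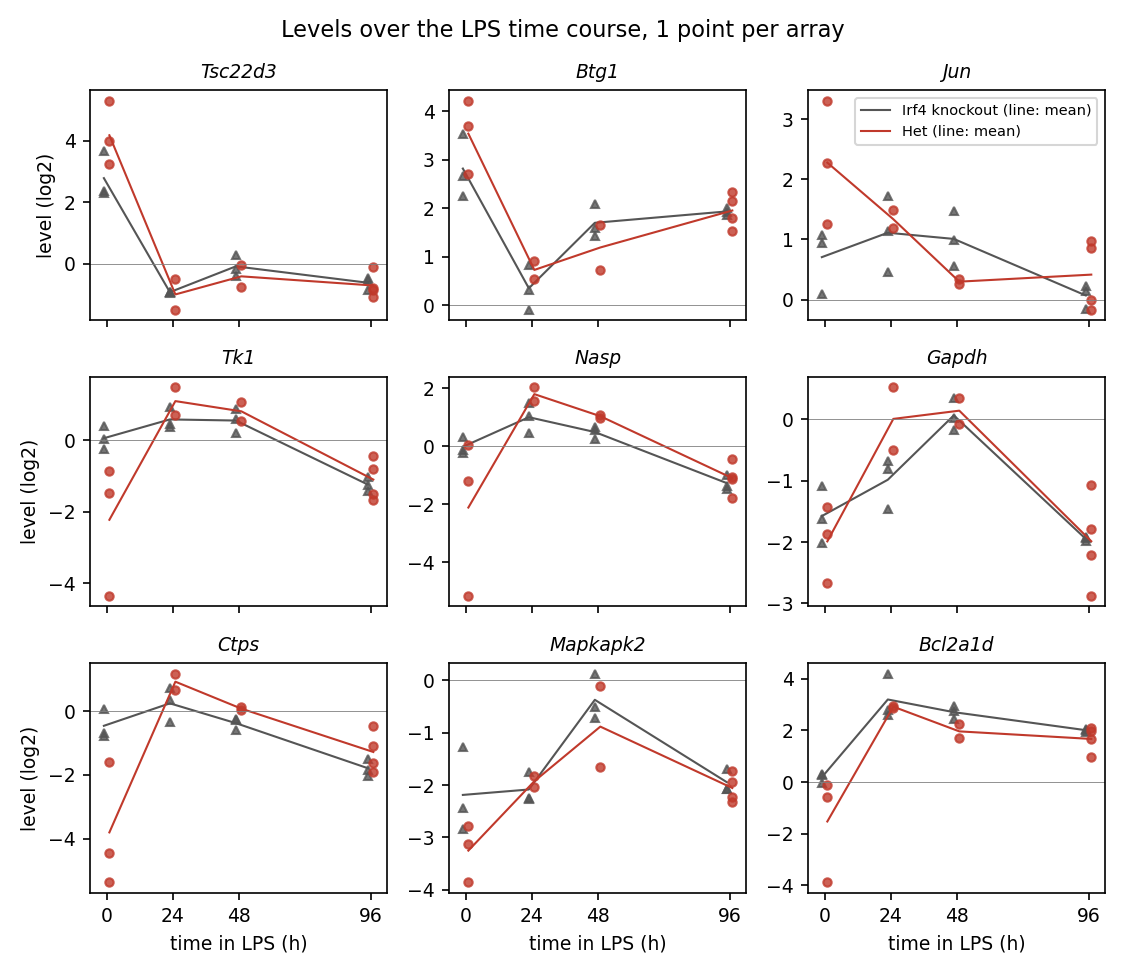
Levels (log2 ratio to the pool, array median 0) of 9 genes by hours in LPS, 1 point per array, KO triangles beside Het circles, lines through the means. In Het cells Tsc22d3 and Btg1 are lower from 24 h on than at 0 h. The Het means of Tk1, Nasp, Gapdh and Ctps are above 0 h at 24 and 48 h, and lower at 96 h than at 48 h. Of these falls only that of Gapdh passed the test. In KO cells Ctps, Tk1 and Nasp differed by 0.08, 0.49 and 0.51 between 48 h and 0 h, without passing.

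KO B cells, which lack Irf4 on both alleles, were measured at 48 h and 0 h too. For 2 of the 3 KO 48 h arrays (replicates 1 and 3) the labels conflict, with KO in the title and Het in the channel's own fields, and the title decided. Between 48 h and 0 h 5 genes changed in KO cells (1.51%), 4 higher (1.21%) and 1 lower (0.302%). Tsc22d3 fell by 2.88 ± 0.48 (SE, limma adjusted p = 0.00365), Pkm rose by 2.84 ± 0.66 (SE, adjusted p = 0.0342), Ldha by 1.64 ± 0.38 (SE, adjusted p = 0.0342) and Mapkapk2 by 1.82 ± 0.44 (SE, adjusted p = 0.0409). S100a6, a calcium-binding protein, had KO levels of 2.41, 1.5 and 1.53 at 48 h, against -0.23, -1.16 and -1.04 at 0 h, and rose by 2.62 ± 0.51 (SE, limma adjusted p = 0.0126). In Het cells S100a6 had 1.64 and -0.52 at 48 h, against -0.35, -0.94 and -1.47 at 0 h, and did not pass (1.48 ± 0.58 SE, adjusted p = 0.119). With the arrays of conflicting labels left out, 0 KO changes and 12 of the 28 Het changes passed the test.

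All 20 genes that had risen in Het cells had a KO difference above 0, with a median of 0.68 and 2 past the threshold. Of the 8 that had fallen 7 had a KO difference below 0. Over all 331 genes 187 KO differences were above 0 and 144 below, with a median of 0.08. The difference between the genotypes' responses was tested for each gene, and 0 of 331 passed by limma (0%), with 28 at an unadjusted p under 0.05. It was -6.17 ± 1.67 (SE, adjusted p = 0.273) for Nars and -3.79 ± 0.98 (SE, adjusted p = 0.273) for Ctps. Nars lay between -0.59 and -0.31 in KO cells at 48 h, against -0.85 to -0.15 at 0 h, with no array near the -8.14 and -8.28 of the Het 0 h replicates of the lowest range. For Jun the difference of the responses was 2.28 ± 0.72 (SE, adjusted p = 0.448) and for Ets1 2.53 ± 0.88 (SE, adjusted p = 0.448). Jun had KO levels of 1.48, 0.55 and 0.99 at 48 h, against 0.94, 1.08 and 0.09 at 0 h, while Het 0 h arrays reached 3.30. Without Het 0 h replicate 3 the count of genes with different responses was 15.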

How the data were processed

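Log2 ratios of 23 mouse lymphochip arrays, 12292 features each, were used as deposited by the authors. Base 2 and the direction Cy5 over Cy3 were assumed, since neither is given in the sources used here, and the other direction would turn every sign. Scanner, background correction, normalization and filters are likewise not given, signals of single channels were not analysed, and dyes were not swapped. Gene symbols came from the platform columns, and 328 of 331 genes were found by gene ID in the RefSeq table (GRCm38.p6). The 4 human arrays were not used.

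The median of all features was subtracted from each array, and features with 1 symbol were averaged per gene. Means of the 8 groups of genotype and time were fitted with limma 3.58.1 in R 4.3.3 (statmod 1.5.0 for alternatives), with empirical Bayes moderated tests and Benjamini-Hochberg adjustment over 331 genes, after a test on simulated data. All tests were 2-sided, and a gene was called at an adjusted p under 0.05. No gene was filtered out. Named were the 15 called genes with the largest difference in each direction, called members of each list or else its 3 smallest p-values, and Cd79b, Jchain, Prdm1, Xbp1 and Myc. For other comparisons up to 10 called genes were named by p, or else the 4 smallest. Where fewer than 10 passed in a direction, E330020D12Rik (-1.79, adjusted p = 0.0644) and Ttc3 (-1.24, adjusted p = 0.0734) completed the lower list without passing. Members and lists were chosen with earlier results of these data known. Replicate numbers of Het arrays at 48 h and 0 h were not taken as pairs. Deviations of arrays with the same number correlated at 0.14 and 0.039 over 2 pairs only. The deviations of the 2 arrays at 48 h mirror each other by construction, so these values cannot decide on pairing.

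Alternatives covered centring, quantile normalization, the features of a gene, the arrays and genes fitted, array weights, database ranges, conflicting labels, extreme values, a replicate block and each array left out. Promoters (RefSeq, 300 bases) were searched on both strands. The number of arrays limits the precision.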

Additional observations from a re-analysis of the deposited data

How the results depend on the processing

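Among the 28 genes Bcl2 turned to -0.21 with values beyond 6 set to missing. For the other signs, leaving out an array or changing the genes or arrays that set the spread could not turn them, so their sign is no mark of stability. Prdm1, not called, turned to 2.67 with only the highest database range, which leaves 1 array a side. The count of 28 genes was 66 when centred over the named features, 45 with no centring and 9 with all features tested. It was 0 with only the 5 arrays compared, 1 with only the Het arrays and 12 with conflicting labels left out. Without 1 of the 0 h arrays it was 28 to 79, with 79 without Het 0 h replicate 3. Without either 48 h array, which leaves 1 array at 48 h, most of the 28 calls were lost. A replicate block gave 24 genes, 23 of them among the 28. The median of all genes, 0.10, moved to 0.25 with no centring, 0.39 under quantile normalization and 0.63 without the lowest range. The 48 h against 24 h count was 0, and 2 with named-feature centring and 0 to 23 without 1 array each. The 96 h against 48 h count of 45 was 77 under quantile normalization, 0 with all features, 1 with the Het arrays only, 101 with array weights, 114 without the lowest range, 22 with the range as a factor, 25 with a replicate block, 17 with conflicting labels left out and 0 to 42 without 1 array each. The KO count of 5 was 15 with named-feature centring, 8 with no centring, 1 with all features, 23 with array weights, 24 without the lowest range, 10 with only the highest range, 11 with the range as a factor, 2 with a replicate block, 0 without the arrays of conflicting labels, 0 with these as Het, 9 with extreme values missing and 1 to 5 without 1 array each. The count of different KO and Het responses, 0, was 3 with named-feature centring, 8 with array weights and 0 to 15 without 1 of the Het 0 h arrays. The cause of these shifts was not tested, apart from the smaller number of arrays or the larger number of tests that some alternatives bring by construction. No signal over background was at hand, so faint spots could not be told from measured low levels.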

Other observations

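Most features of the array carry no symbol or several, and they were tested with the named genes in a fit of 12064 genes and features. In it 68 passed the test between 48 h and 0 h in Het cells. Of 11733 unnamed features 29 were higher and 30 lower at 48 h, and 9 named genes passed. Named genes were 331 of the 12064 tested, so the share that passed was higher among them than among the unnamed features. The rows are unlike, since 222 of the 331 genes average more than 1 feature and each unnamed row is 1 feature. What this does to the share was not tested. The genes behind the unnamed features were not identified here.

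Outside the lists some further genes had 48 h and 0 h levels that did not overlap without passing the test. They were picked after their values were seen. Psap, the precursor of lysosomal saposins, had levels of 1.11 and 0.80 at 48 h, against 2.74, 2.27 and 1.31 at 0 h, a difference of -1.15 ± 0.39 (SE, limma adjusted p = 0.0786). Lipa, the acid lipase of lysosomes, had levels of -0.43 and -0.51 at 48 h, against 0.66, 1.04 and -0.24 at 0 h, a difference of -0.96 ± 0.37 (SE, adjusted p = 0.119). Psmd1, a subunit of the proteasome cap, had levels of 1.25 and 1.01 at 48 h, against 0.37, 0.34 and -1.34 at 0 h, a difference of 1.34 ± 0.54 (SE, adjusted p = 0.133). Ndufa1, a subunit of respiratory complex I, had levels of 0.36 and -0.01 at 48 h, against -0.57, -4.83 and -0.91 at 0 h, a difference of 2.27 ± 0.79 (SE, adjusted p = 0.0864). Within the highest database range these differences were -0.51, -0.27, 2.35 and 0.90.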
